A study of Mus musculus with 8 samples.

Results

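The saline arm of a mouse study of triple-negative breast cancer (TNBC) is described here as a baseline: which genes its tumors expressed, which cell types their RNA carried, and how far one tumor lay from another. Members were chosen by group label alone, which gave 4 of the 8 tumors sequenced, called tumors 1 to 4 by their replicate number. The remaining tumors came from mice given mAb-DXd/IMQ, an antibody against CD276 carrying a topoisomerase inhibitor and an imidazoquinoline (IMQ) that activates Toll-like receptors 7 and 8, and no comparison with them is made. Each library was bulk poly(A)-selected RNA from a whole tumor, sequenced on an Illumina HiSeq instrument.

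The hosts were female BALB/cJ mice, with no engineered allele named in the sources used here, injected under the skin at 6 weeks of age with 4T1-FLuc cells, a luciferase-carrying form of the BALB/c mammary carcinoma line 4T1. The name 4T1-FLuc and these host details come from the methods of the paper, while the sample titles name 4T1 only. Saline was the control treatment, and the sample characteristics call the same treatment PBS. Injections into the tail vein were given every 4 days for 5 courses, and tumors were taken at the study endpoint, whose day is not given in the sources used here. Several features limit the model. All tumors derive from 1 cultured line, luciferase is foreign to an immunocompetent host, the site was the skin rather than the mammary fat pad, and mice whose tumors ulcerated were removed early.

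TNBC lacks estrogen receptor, progesterone receptor and HER2 amplification, and 4T1 is widely used as a metastatic model of it in mice with a working immune system. Such tumors mix carcinoma cells with fibroblasts, vessels, macrophages, granulocytes and lymphocytes. Carcinoma cells of 4T1 secrete factors that act on the bone marrow, and tumor-bearing mice are known for a surplus of myeloid cells. Bulk RNA sums all of these cells, so fewer cells of a type and less RNA per cell cannot be told apart.

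Depth was high in every library. Total counts were 49398150 in tumor 1, 45019927 in tumor 2, 56388627 in tumor 3 and 69582375 in tumor 4. Levels are given as TPM, in which counts are divided by gene length and scaled to a common sum. The length is 1 deposited value per gene, such as 18313 bases for Ptprc and 1742 for Cd53. It need not be the length of the transcript made, so levels compared between genes, ranks and list shares are approximate. A floor of 3 counts in a gene of 1 kb corresponded to 0.179, 0.19002, 0.151 and 0.124 TPM in tumors 1 to 4, and this floor covers counting error only. Of 54532 genes in the table, 29004 had a count in at least 1 tumor and 16077 were expressed, defined as a mean of at least 1 TPM, among them 12666 protein-coding genes. Mitochondrially encoded genes held 2.52%, 2.46%, 2.47% and 2.395% of counts in tumors 1 to 4, and protein-coding genes held 96.7% to 96.9%.

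Tumors 1 and 2 stood apart from the other two, in opposite directions for many gene groups. The pair differed by at least 2-fold at 2191 expressed genes (13.6%), against 852 genes (5.299%) between tumors 3 and 4. The other 4 pairs had 1174 to 1560 such genes. Spearman's coefficient across expressed genes was 0.951 for tumors 1 and 2 and 0.981 for tumors 3 and 4, a description only, since genes are not independent replicates. No pair was a duplicated library. In tumor 1 the median expressed gene lay 0.05 log2 units above the mean of the 4 tumors, and its ribosomal protein share of TPM, at 10.9%, was under the 12.04% to 12.2% of the rest.

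Most expressed genes were steady between tumors, and a minority varied widely. Of 16077 expressed genes, 3341 (20.8%) had a highest tumor at least 2-fold above the lowest after adding 0.1 TPM, and 1035 (6.44%) had a 4-fold range. Protein-coding genes made up 1741 and 422 of these. Without tumor 1 the counts were 1993 and 626, and without tumor 2 they were 2221 and 594, so each of these tumors carried a large part of the spread. The median coefficient of variation (CV, SD over mean of the TPM values) was 0.137 over expressed genes and 0.113 over protein-coding ones. For 15465 genes (96.2%) the CV was above the CV that counting alone would give.

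Spread fell with expression level. The 2937 genes with a mean of 1 to 3 TPM had a median CV of 0.351, and 54.95% of them had a 2-fold range. Among the 8071 genes of 10 to 100 TPM the median CV was 0.0996 and 8.18% had a 2-fold range. The 1556 genes over 100 TPM were alike, at 0.0894 and 8.16%. Many of the 4-fold genes were rare transcripts: 638 of 1035 had a mean under 50 counts, and a mean of at least 50 counts, a limit added after the data were seen, left 397 genes. Values of low genes therefore rest on few reads. The biological coefficient of variation, edgeR's common estimate of spread beyond counting error, was 0.230 over 16607 genes.

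**Figure D1:**
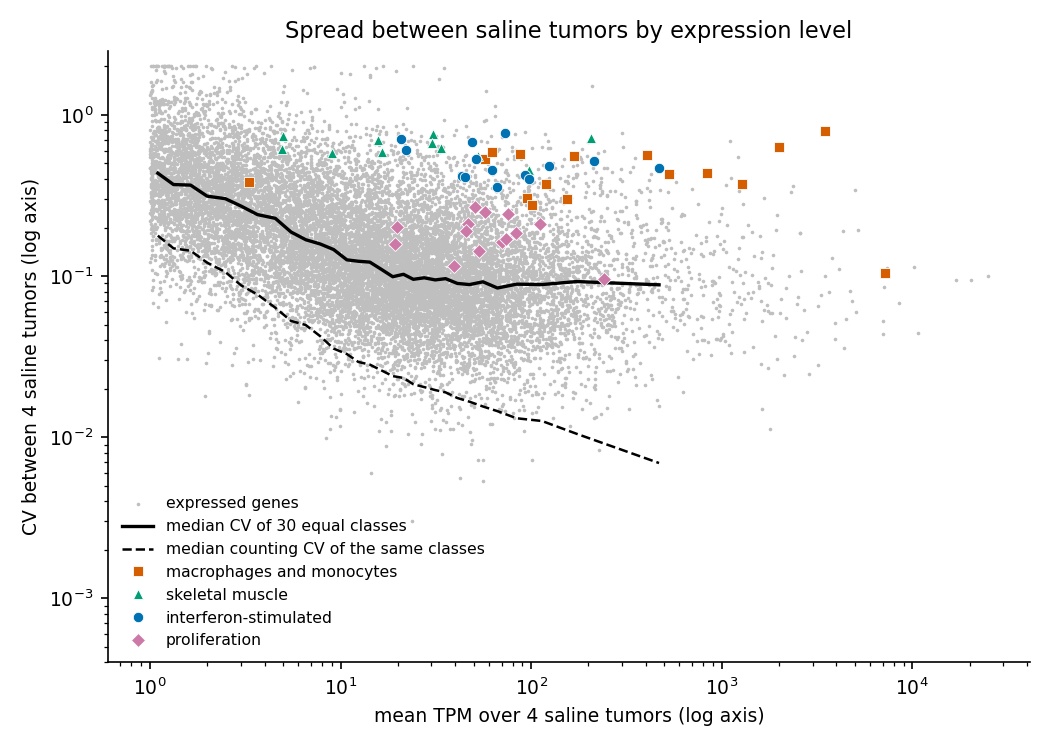
CV between the 4 saline tumors (vertical log axis) against mean TPM (horizontal log axis) for each expressed gene, with 4 gene lists in color, the running median as a solid line and the median counting CV as a dashed line. The medians fall as level rises, and interferon-stimulated and skeletal muscle genes lie above the median of genes at their level.

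The most abundant transcripts were housekeeping RNAs together with a few secreted and immune products. The 20 highest genes held 16.9% ± 0.533 of TPM (SD, n = 4), and 4 of them were mitochondrially encoded, 5 were ribosomal protein genes and 3 were processed pseudogenes. First by mean TPM was Gm23935, annotated as a miRNA gene of 57 bases, at 22582, 26539.9, 27527 and 22964 TPM in tumors 1 to 4. Its short length multiplies modest counts. It lies within Zc3h7a on the opposite strand, which had 27.3% as many counts, and the source of its reads is uncertain. Next came mt-Co1, a subunit of cytochrome c oxidase, at 20269.9 ± 1917 TPM (SD, n = 4), and Fth1, the ferritin heavy chain that stores iron, at 17022 ± 1602 TPM (SD, n = 4). Eef1a1, which delivers aminoacyl-tRNA to the ribosome, stood at 10766 ± 477 TPM (SD, n = 4). The pseudogenes Gm15772, Gm12191 and Gm8730 may take reads of their parent genes, so their own levels are uncertain.

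The remaining top genes that are not ribosomal or mitochondrial pointed to cell types and are described by role. Lgals1, galectin-1, a secreted lectin, had a mean of 7343 TPM and lay between 6341 and 8167 TPM. Spp1, osteopontin, made by both carcinoma cells and macrophages, measured 6469, 7714, 6549 and 7884 TPM in tumors 1 to 4. B2m, the light chain of MHC class I, had a mean of 7145 TPM. These 3 genes differed little between tumors. Cd74, the invariant chain of MHC class II, measured 4166, 6551, 5013 and 4906 TPM, highest in tumor 2. Tmsb4x, an actin-binding peptide abundant in leukocytes, measured 2783 TPM in tumor 1, 6943 in tumor 2, 5247 in tumor 3 and 5027 in tumor 4. It had the widest range of the 20, at 2.49-fold, with tumor 1 lowest and tumor 2 highest. The 13 mitochondrially encoded protein genes summed to 55502, 54575, 53095 and 53011 TPM, and 86 ribosomal protein genes to 109371, 120401, 120581 and 121537 TPM. Their median CVs were 0.0946 and 0.0807.

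**Figure D2:**
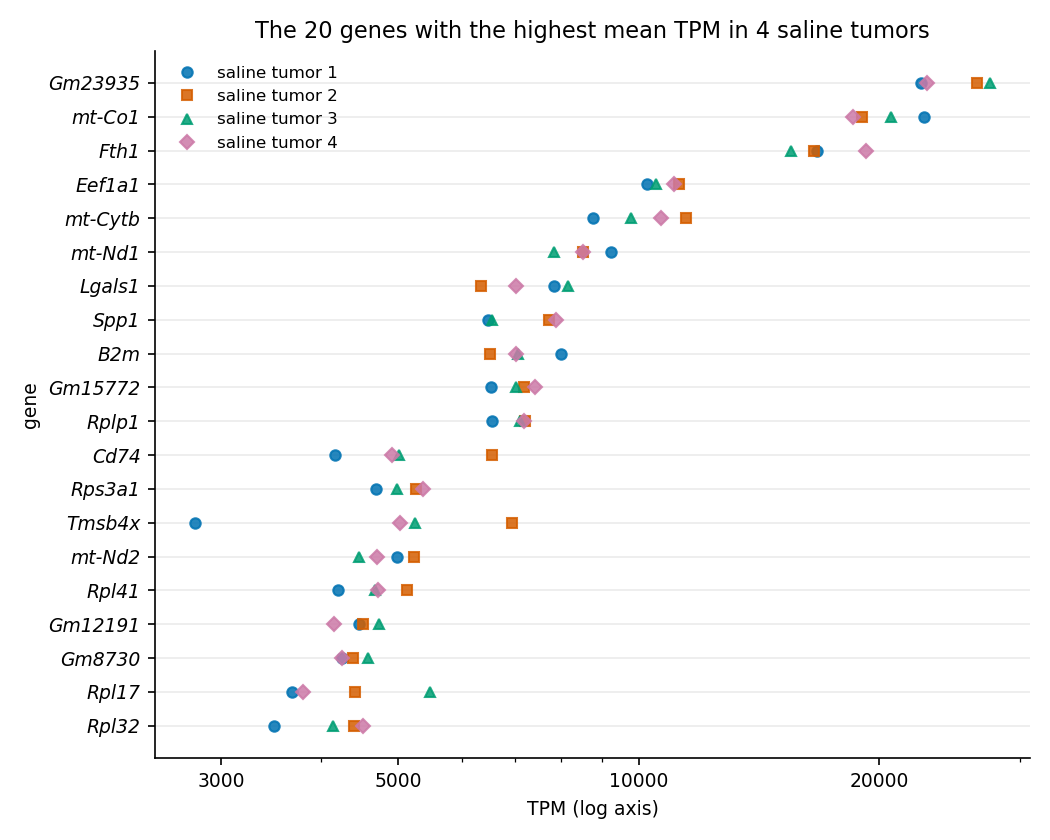
TPM (log axis) of the 20 genes with the highest mean in each of the 4 saline tumors, 1 point per tumor. Points of a gene lie close together for most genes, and Tmsb4x spreads from 2783 to 6943 TPM.

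The label of these tumors as breast carcinoma was checked against epithelial markers, which were abundant in all 4. Epcam, an adhesion molecule of epithelial cells (ENSMUSG00000045394, chr17:87635979-87651106 on GRCm38), measured 645, 265, 571 and 611 TPM in tumors 1 to 4, a mean of 523 ± 174 TPM (SD, n = 4). Tumor 2 was low and the other tumors were close to each other. Krt8, a keratin of simple epithelium (ENSMUSG00000049382, chr15:101996698-102004482), measured 975, 945, 1004 and 879 TPM, a mean of 951 ± 53.2 TPM (SD, n = 4). Its partner Krt18 measured 1328, 1201, 1343 and 1180.2 TPM. The keratin pair thus varied 1.14-fold while Epcam varied 2.43-fold. Carcinoma markers were present in every tumor, including tumor 2.

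Stromal and leukocyte markers were present as well. Col1a1, the main chain of type I collagen (ENSMUSG00000001506, chr11:94936224-94953042), measured 661, 799, 1507 and 1497 TPM in tumors 1 to 4, a mean of 1116 ± 449 TPM (SD, n = 4). Tumors 3 and 4 held about the same level, and the other two lay under it. Ptprc, which encodes the pan-leukocyte antigen CD45 (ENSMUSG00000026395, chr1:138062861-138175708), measured 20.2, 27.01, 23.2 and 26.1 TPM, a mean of 24.1 ± 3.103 TPM (SD, n = 4). Csf1r, the receptor that macrophages need to survive (ENSMUSG00000024621, chr18:61105572-61132149), measured 64.5, 288, 145 and 169.7 TPM, a mean of 167 ± 92.3 TPM (SD, n = 4). Csf1r was low in tumor 1 and high in tumor 2, a 4.46-fold range, while Ptprc varied 1.34-fold.

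**Figure D3:**
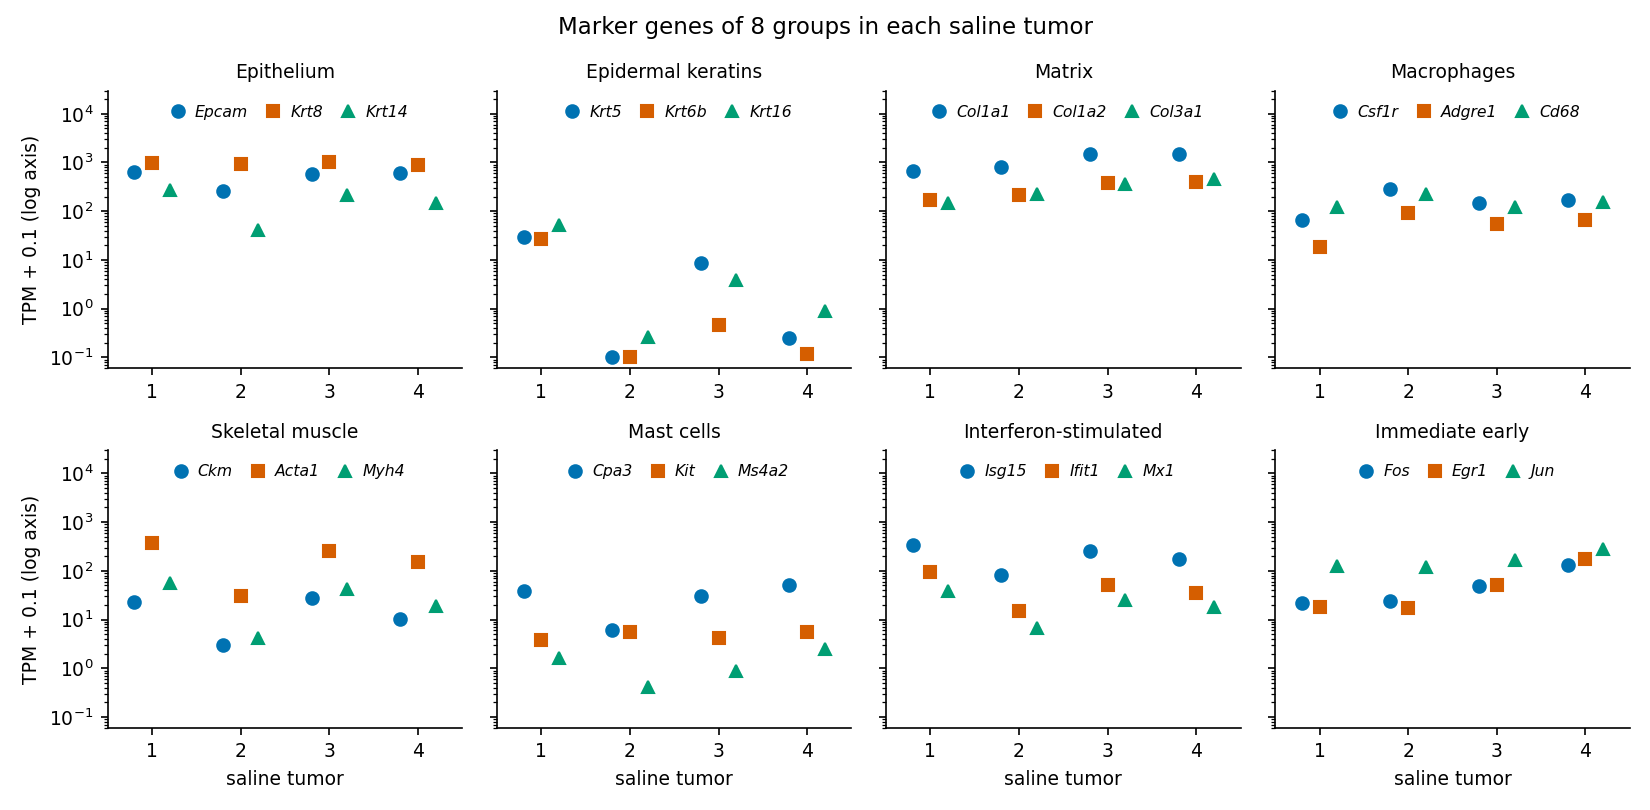
TPM plus 0.1 (log axis) of 3 genes from each of 8 groups in the 4 saline tumors, 1 symbol per gene. Krt8 is level across tumors, Csf1r is lowest in tumor 1, and Krt5 ranges from 0 in tumor 2 to 29.7 TPM in tumor 1.

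To describe the cell types and states more fully, 319 genes on 31 lists were summed per tumor. The first 3 genes of each list were named by rule, and any further list member named here was picked after its values were seen. Of the 31 lists, 13 had a highest tumor at least 2-fold above the lowest and 4 were at least 4-fold apart. Tumor 1 was highest in 11 lists and lowest in 12, and tumor 2 was highest in 10 and lowest in 13.

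The simple epithelium list summed to 4248, 3297, 4217 and 3972 TPM in tumors 1 to 4, with 14 of 15 genes expressed, 8 at a 2-fold range (20.8% over all expressed genes) and a median CV of 0.342. Krt18 held 32.1% of the sum. Tumor 2 was lowest in 11 of the 14 genes, among them Cdh1, the adhesion protein E-cadherin, at 345, 117, 257 and 217 TPM. Cldn4, a tight junction protein, was highest in tumor 4, at 368, 428, 512 and 619 TPM. The junction gene Cldn3 had no count in tumors 2, 3 and 4 and 0.142 TPM in tumor 1. Epithelial genes thus did not move as one block.

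Basal and mesenchymal genes were detected beside the simple keratins, and a pair of them carried most of the level. They summed to 3477, 3707, 3237 and 3518 TPM, with 12 of 13 genes expressed, and Fn1, the matrix protein fibronectin, held 47.7% of it. Fibroblasts and macrophages also make Fn1 and Vim. Without Fn1 both the highest and the lowest tumor of the list changed. Vim, the mesenchymal filament vimentin, measured 1773, 1311, 1501 and 1148 TPM. Twist1, a transcription factor of epithelial-mesenchymal transition, measured 71.3, 49.7, 53.1 and 53.1 TPM. Both were highest in tumor 1. Cdh2, Trp63, Snai2 and Zeb1 were low, with means of 0.286, 1.88, 3.84 and 4.05 TPM. Basal keratins spread far wider than the list. Krt14 measured 269, 41.9, 210.3 and 145 TPM, a 6.42-fold range, and its partner Krt5 measured 29.7 TPM in tumor 1, 0 in tumor 2, 8.73 in tumor 3 and 0.15004 in tumor 4. Tumor 1 was highest and tumor 2 lowest for both keratins, and Krt5 was at least 343-fold higher in tumor 1 than the floor of 3 counts in tumor 2. Both had the tumor order of Krtdap and Krt16, which are described below with genes of stratified epithelium. Whether the reads of Krt5 and Krt14 came from carcinoma or skin was not tested.

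Receptor transcripts matched the receptor-poor label in part. The breast cancer receptor list summed to 85.6, 53.4, 76.5 and 86.9 TPM, with 4 of 8 genes expressed, and Erbb2 held 74.001% of it. Esr1, estrogen receptor alpha, was low but level at 4.01, 3.69, 4.005 and 4.24 TPM. Pgr, the progesterone receptor, had a mean of 0.122 TPM. Erbb2, the gene of HER2, measured 64.2, 40.03, 55.6 and 63.9 TPM, lowest in tumor 2. Erbb4 had no count in tumors 1, 2 and 3.

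Targets of the conjugate used in the treated arm were all transcribed without treatment. The list of 4 genes summed to 121, 139.6, 125 and 124 TPM, and Cd276 held 60.6% of it. Cd276, the surface protein that the antibody binds, measured 86.9, 73.003, 77.1 and 71.9 TPM. Top1, the enzyme that the DXd payload blocks, measured 24.7, 25.7, 25.6 and 26.99 TPM. Both were steady, with ranges of 1.21-fold and 1.09-fold. Tlr7, an endosomal receptor that imidazoquinolines activate, measured 3.29, 14.8, 7.52 and 8.81 TPM, and Tlr8 measured 6.03, 26.1, 15.02 and 16.2 TPM. These receptors of myeloid cells were lowest in tumor 1 and highest in tumor 2, as Csf1r was, with ranges of 4.496-fold and 4.32-fold. Without Cd276 the list's range went from 1.15-fold to 1.96-fold.

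The list of granulocyte and monocyte factors summed to 1048, 740.4, 667 and 1086 TPM, with 11 of 11 genes expressed. Lcn2, the iron-binding protein lipocalin-2, held 47.4% of it. Without Lcn2 the lowest tumor was tumor 2 instead of tumor 3, and the mean log2 level of the list changed both ends. Csf3, the granulocyte growth factor G-CSF, measured 182, 67.1, 86.8 and 101 TPM. Csf1, the macrophage growth factor that binds Csf1r, measured 116, 137, 113 and 112 TPM. Csf2, the gene of GM-CSF, which an annotated antisense transcript overlaps, measured 4.11, 5.78, 3.53 and 4.48 TPM. Csf3 was highest in tumor 1, whereas Csf1 and Csf2 were highest in tumor 2 and varied less. The chemokine Cxcl1, which draws neutrophils, measured 79.7, 30.3, 64.9 and 198 TPM. Cxcl2, its relative, measured 34.1, 3.43, 9.54 and 15.4 TPM, a 9.94-fold range. Both were lowest in tumor 2, but the highest tumor differed.

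Proliferation genes shared much of their order between tumors. They summed to 1078, 816, 1158 and 895 TPM, with 14 of 14 genes expressed and Pcna, the sliding clamp of DNA replication, at 24.4%. Tumor 3 was highest in 11 genes and tumor 2 lowest in 12, and 0 of 14 reached a 2-fold range, where 8.18% of genes of 10 to 100 TPM did. Their median CV of 0.187 was above the 0.0996 of genes at that level. Mki67, the nuclear antigen Ki-67, measured 75.8, 55.4, 81.6 and 67.8 TPM. Top2a, topoisomerase II alpha, measured 130.02, 85.9, 133 and 98.3 TPM. Cdk1, the kinase that drives mitosis, measured 55.8, 43.5, 61.8 and 51.8 TPM. Tumors 1 and 3 lay above the others in these 3 genes.

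Hypoxia and glycolysis genes summed to 3661, 2611, 2596 and 2473 TPM, with 12 of 12 genes expressed, a median CV of 0.228 and Pgk1, a glycolytic kinase, at 37.4%. Tumor 1 was highest in 10 of the 12 genes, and without it the sums were 1.06-fold apart. Car9, a carbonic anhydrase induced by low oxygen, measured 104, 54.9, 49.6 and 56.1 TPM. Slc2a1, the glucose transporter GLUT1, measured 189.7, 137, 122 and 121 TPM. Vegfa, which stimulates vessel growth, measured 101, 97.5, 81.7 and 84.4 TPM. For Car9 and Slc2a1 tumor 1 was clearly the highest, and for Vegfa it was close to tumor 2.

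The stromal lists split by cell type. Fibroblast and matrix genes summed to 1863, 2362, 3824 and 3918 TPM, with 14 of 14 expressed, 9 at a 2-fold range (20.8% over all expressed genes), a median CV of 0.351 and Col1a1 at 37.3%. Col1a2, the second chain of type I collagen, measured 168, 217, 376 and 406 TPM. Col3a1, a fibrillar collagen of soft tissue, measured 145, 226, 365 and 448 TPM. Tumors 3 and 4 were higher than tumors 1 and 2 for both, as for Col1a1. Pdgfra, a growth factor receptor on fibroblasts, did not share this order, at 25.4, 29.6, 24.7 and 29.05 TPM. Fap, a surface protease of activated fibroblasts, measured 2.47, 2.94, 3.77 and 3.06 TPM. Collagen transcripts therefore varied more than these surface markers of the cells that make them.

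Myofibroblast and pericyte genes summed to 239, 240.2, 323 and 269.7 TPM, with 10 of 12 expressed, a median CV of 0.3602 and Acta2, smooth muscle actin, at 41.99%. Acta2 measured 87.1, 98.3, 145 and 119.7 TPM. Pdgfrb, a receptor of mural cells, measured 23.9, 25.8, 33.7 and 32.2 TPM. Rgs5, a pericyte regulator of G protein signals, measured 5.07, 21.7, 14.3 and 15.4 TPM. Rgs5 was low in tumor 1 and high in tumor 2, which set it apart from Acta2 and Pdgfrb. Des, a filament shared by pericytes and skeletal muscle, measured 83.95, 5.84, 62.3 and 34.99 TPM and was lowest in tumor 2.

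Endothelial genes followed Rgs5. They summed to 194, 314, 253 and 250.2 TPM, with 12 of 13 expressed, 8 at a 2-fold range (20.8% over all expressed genes), a median CV of 0.328 and Eng at 41.2%. Tumor 2 was highest in 9 genes and tumor 1 lowest in 10. Cdh5, the junction protein of vessels, measured 12.6, 46.6, 28.5 and 29.99 TPM. Pecam1, the gene of CD31, measured 20.1, 38.1, 24.6 and 28.1 TPM. Kdr, the main VEGF receptor, measured 3.704, 6.09, 7.55 and 7.205 TPM, and tumor 1 was lowest for all 3. Flt1, a decoy receptor for VEGF, went the other way, highest in tumor 1 at 22.6, 14.98, 14.5 and 14.7 TPM. Lymphatic endothelial genes summed to 38.5, 32.01, 46.3 and 43.9 TPM with 4 of 6 expressed, and Pdpn, which fibroblasts and carcinoma cells can also make, held 78.01% of it. Prox1, the master regulator of lymphatic identity, measured 0.342, 0.294, 1.31 and 0.388 TPM, highest in tumor 3. Flt4, the receptor for VEGF-C, measured 1.93, 4.09, 4.92 and 3.51 TPM, also highest in tumor 3.

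Pan-leukocyte genes were highest in tumor 2 and lowest in tumor 1, although several lists of single leukocyte types had other ends. The pan-leukocyte list summed to 735, 1281, 932 and 1008 TPM, with 9 of 9 genes expressed, a median CV of 0.204 and Laptm5, a lysosomal membrane protein, at 23.9%. Tumor 2 was highest in 8 genes and tumor 1 lowest in 8. Cd53, a tetraspanin of blood cells, measured 129.7, 187, 138 and 155 TPM. Coro1a, an actin regulator of leukocytes, measured 99.4, 177, 146 and 142 TPM.

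Macrophage and monocyte genes shared this order and spread further. They summed to 9999.99, 24595, 14235 and 17217 TPM, with 16 of 16 genes expressed, 13 at a 2-fold range (20.8% over all expressed genes), 5 at a 4-fold range (6.44% over all) and a median CV of 0.432. Tumor 2 was highest in 13 genes and tumor 1 lowest in 14. Spp1 held 43.3% of the sum, and without it the list's range went from 2.46-fold to 4.78-fold. The range was 1.73-fold without tumor 1 and 1.72-fold without tumor 2. Adgre1, the macrophage antigen F4/80, measured 18.4, 92.8, 53.4 and 64.9 TPM. Cd68, a lysosomal protein of phagocytes, measured 121, 222, 124 and 154 TPM. Both were highest in tumor 2, but Adgre1 varied 5.03-fold and Cd68 1.82-fold.

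Products of mature macrophages ranged from moderate to wide spread. Lyz2, the antibacterial enzyme lysozyme, measured 682, 7215, 2569 and 3383 TPM, a 10.6-fold range. Apoe, a lipid carrier, measured 613, 3656, 1732 and 1988 TPM, a 5.96-fold range. C1qa, a chain of the complement trigger C1q, measured 735, 1880.3, 1171 and 1316 TPM, a 2.56-fold range. All 3 had tumor 1 lowest and tumor 2 highest. Markers of inflammatory monocytes did not share one order. Ly6c2 went against the list, at 3.47, 1.503, 4.03 and 4.32 TPM, with tumor 2 lowest. Ccr2 went with the list and at a higher level, at 21.4, 109.8, 56.7 and 60.2 TPM, a 5.14-fold range.

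Neutrophil genes were highest in tumor 1, and the lowest tumor varied by gene. Those listed summed to 1497, 554, 911 and 857 TPM, with 11 of 14 genes expressed, 8 at a 2-fold range (20.8% over all expressed genes), a median CV of 0.4597 and S100a9 at 31.5%. By gene, tumor 1 was highest in 7 of the 11, tumor 3 lowest in 6 and tumor 2 lowest in 5, and the mean log2 level of the list gave a lowest tumor other than tumor 2. The range of 2.701-fold was 1.64-fold without tumor 1 and 1.75-fold without tumor 2. S100a8 and S100a9 encode the calprotectin pair that fills neutrophil cytoplasm. S100a8 measured 259, 84.7, 99.4 and 147 TPM. S100a9 measured 639, 128, 186 and 251 TPM, a 4.995-fold range. Tumor 1 was highest and tumor 2 lowest for both S100 genes. Csf3r, the receptor for G-CSF, varied less, at 33.9, 27.4, 23.5 and 27.6 TPM. Granule genes of immature neutrophils were scarce: Camp had no count in tumors 1 and 4, and Ltf lay between 0.1902 and 0.753 TPM. Ngp, another of these granule genes, measured 0.342, 2.95, 0.124 and 0.674 TPM. Ltf and Ngp were highest in tumor 2, where the list's sum was lowest.

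Dendritic cell genes summed to 333, 368, 371 and 341 TPM with 10 of 10 expressed, but Fscn1, an actin-bundling protein that carcinoma cells also make, held 78.8% of it. The cross-presenting subset showed more spread than the sum. Xcr1, its chemokine receptor, measured 0.684, 4.42, 1.26 and 2.12 TPM. Clec9a, its receptor for dead cells, measured 0.363, 4.85, 2.299 and 2.36 TPM, a 13.4-fold range. Flt3, the growth factor receptor of dendritic cells, measured 0.764, 2.14, 0.858 and 1.801 TPM. Tumor 1 was lowest and tumor 2 highest for these 3 genes.

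MHC class II genes, which present antigen to CD4 T cells, were abundant. The list summed to 8525, 12175, 9954 and 9745 TPM, with 7 of 7 genes expressed, 0 at a 2-fold range, a median CV of 0.0997 and Cd74 at 51.1%. Over all genes above 100 TPM, 8.16% had a 2-fold range and the median CV was 0.0894, so the list was about as steady as other genes of its level. H2-Aa measured 879, 1101, 929.9 and 952 TPM. H2-Ab1 measured 990.3, 1431, 1288 and 1209.6 TPM. H2-Eb1 measured 2011, 2556, 2231 and 2222 TPM. Tumor 2 was highest and tumor 1 lowest for these chains. Their ranges, at most 1.45-fold, were far narrower than those of the macrophage products.

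T cell transcripts were present at a low level in each tumor. The list summed to 109, 153, 143 and 139.8 TPM, with 14 of 14 genes expressed, 2 at a 2-fold range (20.8% over all expressed genes), a median CV of 0.238 and Cd8a at 19.8%. Cd8a, the coreceptor of cytotoxic T cells, measured 22.9, 28.9, 29.8 and 26.4 TPM. Cd4, the coreceptor of helper T cells that some myeloid cells also carry, measured 3.27, 5.78, 5.01 and 6.44 TPM. Cd3e, a signalling chain of the T cell receptor, measured 2.93, 6.04, 5.89 and 3.79 TPM. Cd8a lay far above Cd3e in every tumor, and which cells its reads came from was not tested. Tumor 1 was lowest for all 3 genes, while the count at a 2-fold range lay near the share over all genes.

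Cytotoxic genes as a list ran opposite to the T cell list at both ends. The NK and cytotoxic list summed to 291, 149, 225 and 192 TPM, with 8 of 9 genes expressed, a median CV of 0.355 and Gzmb at 31.8%. Tumor 2 was lowest in 6 of the 8 genes. Gzmb, the protease granzyme B, measured 123, 29.1, 75.6 and 44.4 TPM, a 4.23-fold range. Prf1, the pore protein perforin, measured 37.5, 13.9, 16.2 and 14.6 TPM. Both were highest in tumor 1 and lowest in tumor 2. Ncr1, the NK receptor NKp46, measured 6.79, 5.02, 6.32 and 13.003 TPM, highest in tumor 4. Nkg7, a granule membrane protein, was level at 43.98, 42.8, 50.9 and 43.5 TPM. Only Klrd1 and Klrk1 were lowest in tumor 1. Klrd1, the receptor chain CD94, measured 20.5, 37.2, 36.7 and 34.996 TPM, highest in tumor 2 as the T cell list was. Klrk1, the receptor NKG2D, measured 4.38, 5.56, 7.45 and 7.73 TPM.

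B and plasma cell genes had the widest range of all lists, 27.001-fold. They summed to 29.3, 215, 48.003 and 791 TPM with 6 of 11 genes expressed, and Igkc, the kappa light chain constant region, held 77.4%. The range was 10.8-fold without Igkc, 7.35-fold without tumor 4 and 16.5-fold without tumor 1. Jchain, the joining chain of secreted IgM and IgA, measured 1.59, 7.93, 1.12 and 30.7 TPM. Mzb1, a chaperone of antibody-secreting cells, measured 0.66004, 1.75, 1.23 and 16.5 TPM. Tumor 4 was highest for both by a wide margin. Ighg1, the constant region of IgG1, was highest in tumor 2, at 1.61, 51.2, 2.2002 and 34.7 TPM. Ighm, that of IgM, measured 4.43, 24.5, 22.96 and 28.8 TPM, low in tumor 1 alone. Ms4a1, the mature B cell gene of CD20, stayed rare, at a mean of 0.0996 TPM. Tnfrsf17, a plasma cell receptor, had no count in any of the 4 tumors.

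Mast cell and basophil genes were lowest in tumor 2 in sum, though still detected there. Together they summed to 439, 41.9, 305 and 378 TPM, with 8 of 8 genes expressed, 6 at a 4-fold range (6.44% over all expressed genes), a median CV of 0.612 and Tpsb2, a tryptase, at 43.2%. The range of 10.5-fold was 1.44-fold without tumor 2. Cpa3, the carboxypeptidase of mast cell granules, measured 39.02, 5.93, 30.7 and 50.7 TPM. The chymase Mcpt4 measured 94.9, 3.602, 58.8 and 61.7 TPM, a 26.3-fold range. Ms4a2, the beta chain of the IgE receptor, measured 1.49, 0.315, 0.789 and 2.43 TPM. Tumor 2 was lowest for these 3 genes. Kit, the stem cell factor receptor, which other cells also carry, measured 3.67, 5.36, 4.09 and 5.37 TPM and did not share that order.

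Eosinophils left little trace. Their list summed to 0.579, 4.46, 1.95 and 2.52 TPM with 1 of 5 genes expressed, the ribonuclease Ear2, which held 67.3% and had no count in tumor 1. The range of 7.69-fold was 1.76-fold without Ear2, 2.28-fold without tumor 1 and 4.35-fold without tumor 2. Among the defining granule genes, Epx had 1 count in all and Prg2 had 2, so neither was detectable above the floor. Siglecf, a surface lectin shared with some macrophages, had a mean of 0.5004 TPM.

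Blood elements differed between tumors as well. Red cell genes summed to 65.1, 191, 81.7 and 145 TPM, with 5 of 7 expressed and the globin Hbb-bs at 58.4%. Hbb-bs measured 41.6, 112, 41.7 and 86.6 TPM. The alpha globin Hba-a1 measured 15.8, 49.9, 26.5 and 31.7 TPM. Tumor 2 was highest and tumor 1 lowest in 5 of the 5 expressed red cell genes, the order of the endothelial list at its ends. Platelet genes summed to 42.7, 72.7, 34.2 and 70.5 TPM with 2 of 5 expressed, and Pf4, a chemokine that macrophages also make, held 93.8%. The order rests on Pf4, since the other expressed gene, Itga2b, a platelet integrin chain, measured 3.89, 1.71, 2.11 and 3.32 TPM, highest in tumor 1 and lowest in tumor 2. Gp1bb, a platelet receptor chain, had no count in the 4 tumors.

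Skeletal muscle transcripts were present in all 4 tumors and varied strongly. The list summed to 829, 104, 652 and 418 TPM, with 11 of 12 genes expressed, 11 at a 2-fold range (20.8% over all expressed genes), 10 at a 4-fold range (6.44% over all) and a median CV of 0.621. Acta1, the actin of skeletal muscle, held 40.9% and measured 376, 30.6, 260.3 and 152 TPM. Ckm, muscle creatine kinase, measured 22.4, 2.91, 27.01 and 10.4 TPM. Myh4, a fast myosin heavy chain, measured 56.2, 4.09, 42.4 and 19.2 TPM. Tumor 2 was lowest in 11 of 11 expressed genes, and tumor 1 was highest in 9. Without tumor 2 the range went from 7.98-fold to 1.98-fold. The troponin gene Tnnc2 had no count in any of the 4, although the other 11 genes were expressed, and the source of this zero was not tested.

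Adipocyte genes were low and lowest in tumor 2. They summed to 49.1, 16.8, 30.5 and 52.9 TPM with 5 of 9 expressed, and 4 genes of the list had no count in tumor 2. Fabp4, a fatty acid carrier that vessels and macrophages also make, held 37.5%. The range was 17.6-fold without Fabp4 against 3.15-fold with it, and 1.74-fold without tumor 2. Adipoq, the hormone adiponectin, measured 3.07, 0, 1.53 and 1.58 TPM. Cidec, a lipid droplet protein, measured 1.42, 0, 0.979 and 1.55 TPM. Neither had a count in tumor 2, and the ratio of tumor 1 to the floor there was at least 22.3-fold for Adipoq.

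Epidermal genes singled out tumor 1. The epidermis and hair follicle list summed to 189, 75.4, 73.4 and 78.8 TPM, with 7 of 11 genes expressed, a median CV of 0.553 and Lgals7, a galectin of stratified epithelium, at 78.1%. Tumor 1 was highest in 7 of 7 expressed genes, and without it the sums were 1.07-fold apart. Krt1, a keratin of differentiating epidermis, measured 4.68 TPM in tumor 1, 0 in tumor 2, 0.0343 in tumor 3 and 0 in tumor 4. Lor, loricrin of the cornified layer, measured 5.37, 0.0356, 0.0567 and 0 TPM. Both were near or under the floor outside tumor 1. Krt10, the partner of Krt1, was level by contrast, at 10.96, 8.15, 10.6 and 10.2 TPM. Peripheral nerve genes summed to 22.5, 20.9, 19.9 and 17.9 TPM with 3 of 7 expressed, and Mbp, a myelin protein, held 73.3%. Sox10, a transcription factor of Schwann cells, had 3 counts in tumor 1 and 0 elsewhere.

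The muscle, adipocyte, mast cell, epidermal, red cell and nerve values stand beside the spread of the carcinoma and immune lists in the same libraries. Tumor 2 was low for muscle, adipocyte and mast cell genes and high for macrophage, vessel and red cell genes. Their part in the counts of variable genes was not tested.

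**Figure D4:**
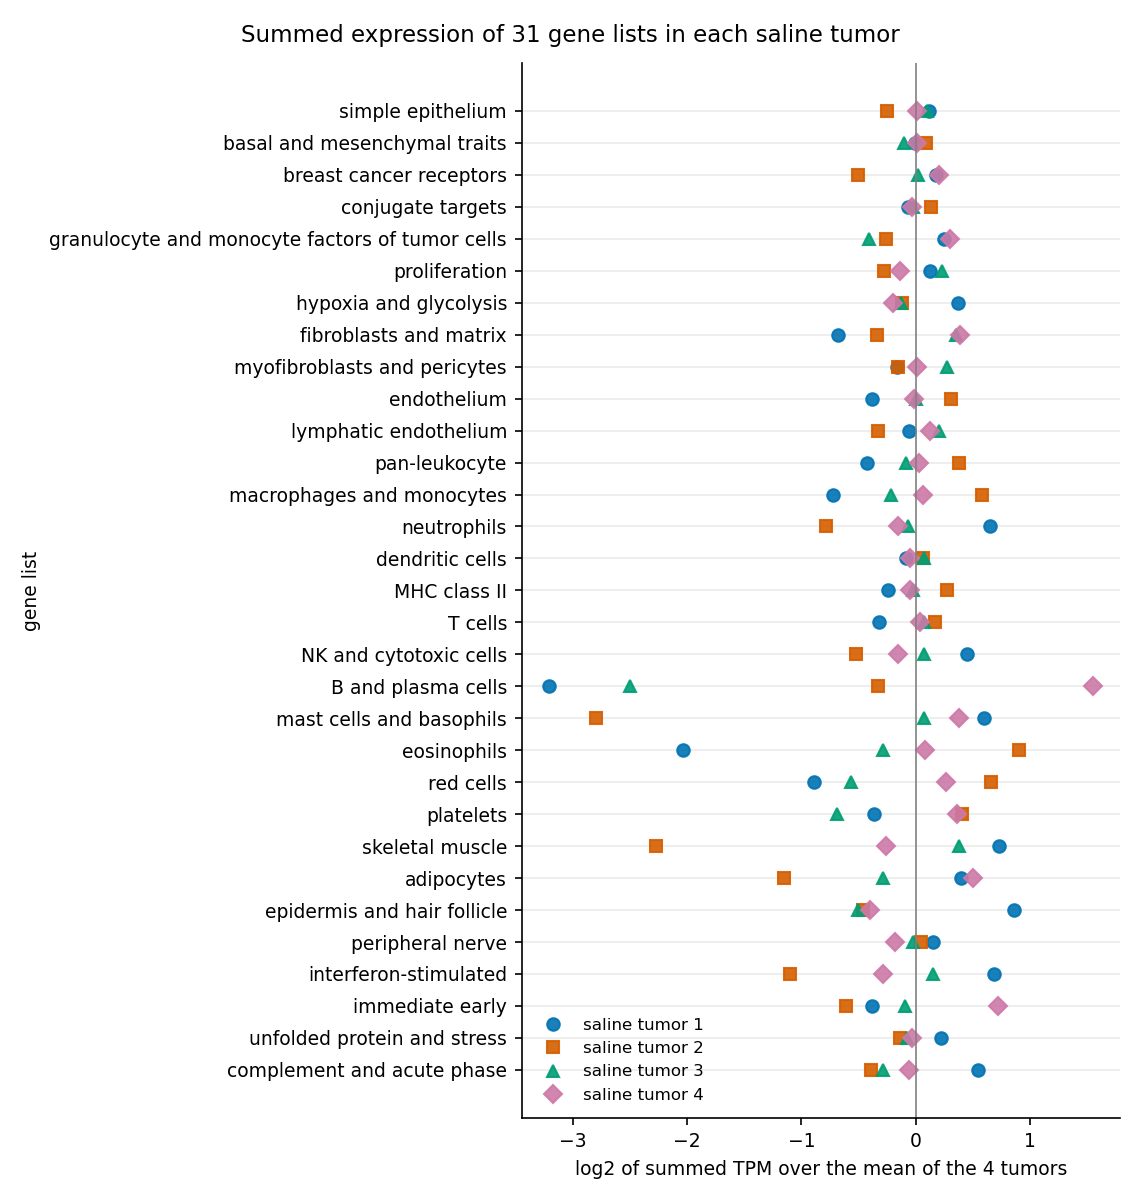
Summed TPM of each of the 31 gene lists in the 4 saline tumors, as log2 of its ratio to the mean of the 4 (horizontal axis), 1 point per tumor. B and plasma cell, mast cell, skeletal muscle and eosinophil lists have the widest ranges, and the dendritic cell, conjugate target and basal lists are the narrowest.

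Among cell states, interferon-stimulated genes gave the most uniform pattern. The list summed to 2295, 668, 1587 and 1175 TPM, with 14 of 14 genes expressed, 14 at a 2-fold range, 6 at a 4-fold range and a median CV of 0.478, against 20.8% at a 2-fold range, 6.44% at a 4-fold range and a median CV of 0.137 over all expressed genes. Gbp2, a GTPase that attacks intracellular microbes, held 32.9%. Tumor 2 was lowest in 14 of 14 genes, and tumor 1 was highest in 13, the exception being Oas2. The range of 3.44-fold was 1.95-fold without tumor 2 and 2.38-fold without tumor 1. Isg15, a ubiquitin-like modifier, measured 339, 83.4, 258 and 172 TPM. Ifit1, which binds foreign RNA, measured 92.9, 14.6, 52.2 and 34.9 TPM. Mx1, an antiviral GTPase, measured 38.8, 6.76, 24.9 and 17.7 TPM. The 3 genes kept one order, with tumor 1 highest, then tumor 3, tumor 4 and tumor 2.

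Because these genes moved together, the promoters of Isg15 and Ifit1 are shown, as the 150 bases before the RefSeq start on build GRCm38.p6, read 5′ to 3′ on the strand of the gene. Capitals mark matches to AANNGAAA, a core of the interferon-stimulated response element, on either strand. Isg15 lies on the minus strand at chr4:156200819-156200968 and has 4 matches, some of which overlap and form 1 run of capitals. Ifit1 lies on the plus strand at chr19:34640739-34640888 and has 2 matches.
Isg15: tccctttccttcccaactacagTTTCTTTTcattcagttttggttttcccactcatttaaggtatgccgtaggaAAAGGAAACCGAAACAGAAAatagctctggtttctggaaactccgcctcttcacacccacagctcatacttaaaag
Ifit1: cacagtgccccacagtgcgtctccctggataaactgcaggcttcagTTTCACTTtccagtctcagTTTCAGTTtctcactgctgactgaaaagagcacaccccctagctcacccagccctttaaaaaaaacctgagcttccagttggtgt
Of 32851 promoters of this length, 4080 (12.4%) held at least 1 match and 512 (1.56%) held 2 or more. Of the 14 listed genes, 10 had a promoter sequence, 6 of these held a match and 4 held 2 or more. A match describes the letters and is not evidence of binding.

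Immediate early genes, which respond within minutes to growth signals and to handling, were highest in tumor 4. They summed to 1127, 965, 1379.8 and 2419.6 TPM, with 10 of 10 genes expressed, 8 at a 2-fold range (20.8% over all expressed genes), a median CV of 0.532 and Junb at 37.1%. Junb overlaps Prdx2 on the opposite strand, and strandedness is not given in the sources used here, so its reads could come from either gene. Without Junb the range was 2.92-fold, with tumor 4 still highest. Tumor 4 was highest in 9 of 10 genes, and without it the range went from 2.51-fold to 1.43-fold. Fos measured 21.8, 23.8, 49.5 and 133 TPM. Egr1 measured 17.7, 17.2, 51.1 and 171 TPM, a 9.97-fold range. Jun measured 125, 119, 168 and 279.9 TPM. For these transcription factors tumors 1 and 2 were about level and low. Atf3 was the exception and highest in tumor 1, at 45.1, 34.7, 29.6 and 30.9 TPM.

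Stress genes varied less. The unfolded protein list summed to 1898, 1482, 1548 and 1591 TPM, with 10 of 10 expressed, a median CV of 0.162 and Hspa5, the chaperone BiP, at 53.2%. Hspa5 measured 1004, 712, 870.4 and 882 TPM. Atf4, the transcription factor of the integrated stress response, measured 204, 167, 140.3 and 143 TPM. Ddit3, its proapoptotic target CHOP, measured 34.3, 14.5, 16.4 and 14.3 TPM. Tumor 1 was highest for all 3, most clearly for Ddit3. Ddit3 overlaps Mars on the opposite strand, and strandedness is not given in the sources used here, so its reads could come from either gene.

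Complement and acute phase genes were also highest in tumor 1. They summed to 1182, 618, 662 and 778 TPM, with 9 of 9 expressed, a median CV of 0.308 and C3, the central complement protein, at 51.4%. The range of 1.91-fold was 1.26-fold without tumor 1. C3 measured 645, 288, 309 and 422 TPM. Hp, the hemoglobin scavenger haptoglobin, measured 32.3, 5.05, 16.9 and 19.9 TPM. Saa3, an acute phase protein, was nearly level at 31.1, 30.3, 40.6 and 32.3 TPM. C3 and Hp thus shared tumor 1 as their highest, and Saa3 did not.

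The single genes with the largest spread included several known from stratified epithelium, a grouping by role and not by a fixed list. They were the 20 protein-coding genes with the largest SD of log2 TPM, so they were chosen on the values shown and were not tested. Most of them were highest in tumor 1, among them the wound-induced keratins Krt6a, Krt6b and Krt16, the cornified envelope genes Sprr1a, Sprr1b, Sprr2a3 and Cnfn, and the skin proteases Klk6 and Klk7. Krt16 measured 52.3, 0.162, 3.87 and 0.816 TPM, a 323-fold range. Krt6b measured 27.3, 0, 0.361 and 0.0184 TPM, at least 321-fold above the floor in tumor 2. Krt6a, its close paralog, measured 13.8, 0, 0.2505 and 0 TPM. Reads shared by the Krt6 paralogs can fall to either gene, so their single values are less certain than their common order. Krtdap, a secreted keratinocyte peptide, measured 38.004, 0, 2.45 and 0.121 TPM. Calm4, an epidermal calmodulin, measured 28.8, 0, 0.2201 and 0 TPM. Elovl4, which makes the very long fatty acids of the skin barrier, measured 6.81, 0, 1.73 and 0.109 TPM, and Dmkn, dermokine, 8.91, 0, 1.38 and 0.1504 TPM. Tumor 3 came next after tumor 1 in the epidermal genes given with values, and tumor 2 had no count in the last 4 named.

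A few of the widest genes were not epidermal. Ccl21a, a chemokine of lymphatic vessels and lymph nodes, measured 5.498, 19.4, 0.502 and 0 TPM, highest in tumor 2 and without a count in tumor 4. It has near-identical copies in the mouse genome, so its assignment is uncertain. Gm9780 measured 4.79 TPM in tumor 2 and had no count in the other tumors. Gm11037 measured 0, 1.06, 0 and 5.49 TPM, but it is 60 bases long and lies within Hspa12b on the same strand, and its highest value rests on 8 counts.

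Counting by tumor showed where the extremes lay. Of the 1035 genes with a 4-fold range, tumor 1 was highest in 421, tumor 2 in 257, tumor 3 in 157 and tumor 4 in 200. Tumor 2 alone was lowest in 407, tumor 1 in 246, tumor 4 in 163 and tumor 3 in 110, and the lowest value was shared by several tumors in 109. Among protein-coding genes tumor 1 was highest in 211 and tumor 2 alone lowest in 239 of 422. Gains in tumor 1 and losses in tumor 2 were thus the most common extremes.

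**Figure D5:**
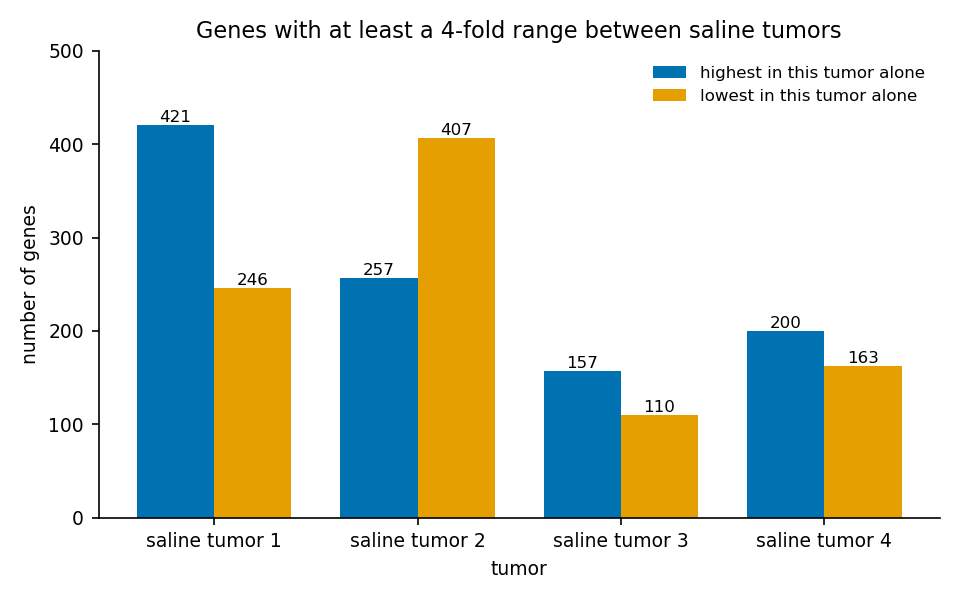
Number of genes with at least a 4-fold range, by the tumor that held the highest value (blue) or alone held the lowest (orange). Tumor 1 holds the most highest values, 421, and tumor 2 the most lowest values, 407.

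Genes that set off a single tumor were picked by their gap to the nearest other tumor, again on the values shown. For tumor 1 the largest gains were the epidermal genes Calm4, Sprr2a3, Krt6b, Cnfn and Klk6. Its losses included C1qtnf3, a secreted C1q-like protein of stromal cells, at 1.87, 19.7, 34.7 and 37.1 TPM, a 19.9-fold range, and the eosinophil ribonuclease Ear2. The third, Gm17720, spans 27 bases and had at most 3 counts. For tumor 2 the gains were genes at low level, Gm9780, Hist1h4f, Rnase2a, Gm10964 and Ngp. Gm10964 spans 120 bases, had 11 counts in tumor 2 and overlaps the far better covered Hipk1 on the opposite strand, so its level is uncertain. Rnase2a, a ribonuclease of the eosinophil family, measured 0.173, 6.79, 1.46 and 1.07 TPM, and Ngp, a granule protein of young neutrophils, 0.342, 2.95, 0.124 and 0.674 TPM. Losses in tumor 2 were Cwh43, Apobec2 and Ankrd2. Cwh43, which acts on lipid-anchored proteins, measured 6.91, 0.174, 7.96 and 6.304 TPM, a 45.8-fold range. The muscle genes Apobec2, at 4.08, 0.0397, 3.19 and 3.51 TPM, and Ankrd2, at 6.03, 0, 2.799 and 2.098 TPM, followed the muscle list.

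Tumor 3 had the smallest gaps above the rest. Sncg, gamma-synuclein, measured 3.58, 4.24, 11.4 and 3.05 TPM. Mmrn1, a lymphatic endothelial gene, measured 0.998, 1.01, 2.96 and 1.17 TPM, with the order of Prox1 at its top. Itga11, a collagen receptor of fibroblasts, measured 0.687, 0.914, 1.898 and 0.899 TPM. In each of these genes tumor 3 was highest by less than 4-fold. H2-Eb2 and AC132444.2 completed the gains. Its largest loss was Srp54b, a copy of the signal recognition particle gene, at 6.35, 5.36, 0.134 and 4.24 TPM, a 47.3-fold range. The neighboring copy Srp54c, looked up after this value was seen, measured 7.397, 9.88, 6.83 and 11.8 TPM, and the 3 copies Srp54a, Srp54b and Srp54c together summed to 13.9, 15.4, 7.07 and 16.2 TPM. Reads can move between copies this alike, so the loss of Srp54b is uncertain as a change of one gene. Tmem254c and Gm5741 were the other losses of tumor 3.

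Among the gains of tumor 4 were some genes of antibody-secreting cells. Mzb1 and Jchain were among its 5 largest gains, at 24.97-fold and 27.3-fold ranges. Gm2004 measured 0.136, 0.614, 0.0576 and 6.35 TPM, and Gm11037 was described with the widest genes. Atp6v0a4, a proton pump subunit, measured 0.709, 1.11, 1.22 and 8.56 TPM, but it overlaps the better covered D630045J12Rik on the same strand, so its level is uncertain. Losses in tumor 4 were Gm10271, Fam209 and Ccl21a, each with 2 counts or fewer there. Gm10271 overlaps better covered noncoding transcripts on the opposite strand, so its level is uncertain as well.

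At the steady end, 5 protein-coding genes of at least 50 TPM had the smallest CVs, chosen on the values shown. Pskh1, a serine kinase, measured 55.8, 55.5, 55.2 and 55.8 TPM, a CV of 0.00536, under its counting CV of 0.01699. Idh3g, a subunit of mitochondrial isocitrate dehydrogenase, had a mean of 101 TPM, and Sept10, a septin, of 55.7 TPM. Clint1, a clathrin adaptor, had a mean of 52.6 TPM, and Eif3l, a translation initiation factor, of 228 TPM. The 5 genes ranged at most 1.02-fold. They are the extremes of all protein-coding genes of that level, so such small values arise in part by selection.

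The sex of the hosts and of the line was checked last. Xist, the RNA of the inactive X chromosome, measured 33.5, 70.96, 52.6 and 49.6 TPM, lowest in tumor 1 and highest in tumor 2. The Y-linked genes Ddx3y, Kdm5d, Uty and Eif2s3y had no count in the 4 tumors, as for female tissue. Xist thus had the same lowest and highest tumor as the pan-leukocyte list.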

How the data were processed

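The raw counts per gene and tumor that the authors deposited were used, with the gene length of the same table. The submitters' processing notes name HISAT2, HISAT, TopHat2 and the build mm39, with no version, while the gene coordinates match GRCm38. Neither the counting program nor strandedness is given in the sources used here. The 4 columns of treated tumors were not used. TPM was computed here with Python 3.11.15, pandas 2.3.3 and matplotlib 3.10.9. Scaling factors and the biological coefficient of variation came from R 4.3.3, edgeR 4.0.16 (filterByExpr, TMM, intercept only) and DESeq2 1.42.0. Code was tested on simulated data.

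Expressed genes had a mean of at least 1 TPM, and ranges of 2-fold and 4-fold were counted on TPM plus 0.1. There is a single group, so no groups were compared and no p-value is given. Dixon's ratio was used to mark tumors far from the others. Named genes were the 20 highest by mean TPM, the 20 protein-coding genes with the largest SD of log2 TPM, for each tumor the 5 and 3 with the largest gaps above and beneath the others, the first 3 of each list, the 5 steadiest of at least 50 TPM, and Xist with 4 Y-linked genes. Some genes that the rule names are not reported here. The most variable, single-tumor and steadiest genes were chosen on the values shown. Immunoglobulin and T cell receptor segments were summed by locus. Members and lists were chosen with earlier results of these data known. In all, 100 symbols belonged to more than 1 gene identifier, and for the list gene Ddit3 the identifier with more counts was used. The 150 bases before each start were searched in RefSeq promoters. Alternatives were CPM without length, other scaling, pseudocounts and filters, protein-coding genes only, other list scores and leaving out each tumor. A mean of at least 50 counts and other scaling of the 5 markers were added after the data were seen.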

Additional observations from a re-analysis of the deposited data

Results flagged for a closer look

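A tumor was marked as far from the others where its gap to the nearest tumor took most of the range on the log2 scale, by Dixon's ratio. Of 124 values checked, 15 were marked, where chance alone marks about 1 in 20. The 124 are not independent, since lists were checked beside their own members, and 3 marks rest on at most 3 counts, so their number is not compared with chance. Tumor 1 was the high tumor in 8 of them and tumor 2 the low tumor in 3. For Car9 the ratio was 0.833, with tumor 1 high at 104 TPM and the others at 49.6 to 56.1. Ddit3 had a ratio of 0.844, with tumor 1 high at 34.3 TPM against 14.3 to 16.4. For Prf1 it was 0.847, with tumor 1 high at 37.5 TPM against 13.9 to 16.2. The epidermal gene Krt1 had 0.924, with 4.68 TPM in tumor 1 and at most 0.0343 elsewhere. Lor had 0.888, with 5.37 TPM in tumor 1 and at most 0.0567 elsewhere. The hypoxia and glycolysis list had 0.862, with tumor 1 high at 3661 TPM against 2473 to 2611. The epidermis and hair follicle list had 0.924, with tumor 1 high at 189 TPM against 73.4 to 78.8. Sox10 had 1.00 from 3 counts in tumor 1 and 0 elsewhere.

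Epcam had a ratio of 0.862, with tumor 2 low at 265 TPM against 571 to 645. Cidec had 0.848, with 0 in tumor 2 against 0.979 to 1.55 TPM. The mast cell and basophil list had 0.845, with tumor 2 low at 41.9 TPM against 305 to 439. Prox1 had 0.833, with tumor 3 high at 1.31 TPM against 0.294 to 0.388. Prg2 had 1.00 from 2 counts in tumor 3, and Epx had 1.00 from 1 count in tumor 4. Lyve1 had 0.979, with tumor 4 low at 1.91 TPM against 3.298 to 3.34. The source of these values was not tested.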

How the results depend on the processing

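The count of expressed genes stayed within 1.5 times under each of its alternatives. The count of genes with a 2-fold range went from 3341 to 2194 with CPM without length, 1846 with protein-coding genes only, 1241 with a mean of at least 5 TPM, 11887 with no filter and 2002 with a mean of at least 50 counts as well. Leaving out 1 tumor gave 1993 to 2971. The count with a 4-fold range went from 1035 to 439 with CPM without length, 462 with protein-coding genes only, 269 with a mean of at least 5 TPM, 4530 with no filter, 506 with a pseudocount of 1 and 397 with a mean of at least 50 counts as well. Leaving out 1 tumor gave 594 to 940. The setting with protein-coding genes only held 12832 expressed genes, against 12666 protein-coding ones in the main setting. Its counts of 1846 and 462 are thus not the 1741 and 422 given earlier. Fewer genes entered under the stricter filters and more under none, and the cause of the other shifts was not tested. The biological coefficient of variation was 0.322 with no filter and 0.199 to 0.261 when a tumor was left out. TMM scaling gave 3353 and 1035 genes, and DESeq2 size factors 3347 and 1033.

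Of 31 lists, TMM scaling kept the highest tumor in 30 and the lowest in 31. Scoring by mean log2 kept them in 25 and 24, and leaving out the most abundant gene in 27 and 24. Leaving out a tumor moved 25 list ranges by more than 1 SD over tumors on the log2 scale and left 99 within it. A list's range cannot change when the tumor left out is neither its highest nor its lowest. Many of the 99 were therefore fixed in advance and are no sign of stability. Of the 100 most variable genes, 56 were also among the 100 highest by CV, 64 with a pseudocount of 1 and 98 with TMM. No paired analysis was possible because there is 1 group. Depth limits genes under the floor of 3 counts, and 4 tumors limit any estimate of spread.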

Other observations

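Antigen receptor transcripts gave a view of the lymphocytes that the lists did not. T cell receptor segments summed to 30.4, 46.7, 40.7 and 45.5 CPM (counts scaled to the total of the library) in tumors 1 to 4, lowest in tumor 1. Immunoglobulin kappa segments held 4.33, 37.9, 5.02 and 166 CPM, highest in tumor 4. In tumor 2 a single kappa segment, Igkv4-53, held 85.9% of 644 variable segment counts, and in tumor 4 the top segment, Igkv3-1, held 43.3% of 2763. In tumor 4, Ighv9-3 held 49.4% of 712 heavy chain variable counts. For T cell receptor beta, whose variable segments had 143 to 322 counts per tumor, the top segment held 28.7%, 19.9%, 33.6% and 20.8%. The top kappa segment also held 43.8% of 89 counts in tumor 3 and 27.3% of 44 in tumor 1, and the top heavy chain segment held 60.0% of 20 counts in tumor 1 and 58.8% of 34 in tumor 3, with its lowest share in tumor 2. The high kappa share was thus particular to tumor 2, while the shares of tumors 1 and 3 rest on few counts. Segments were named after their values were seen. Segments of a family are alike, so reads can fall to a relative.

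H2-Ea-ps, also picked after its values were seen, ranked 23 by mean TPM. It is annotated as an unprocessed pseudogene (chr17:34342933-34344643 on GRCm38) and measured 3093, 4204, 3935 and 3995 TPM in tumors 1 to 4. As background, the C57BL/6 reference carries a disabled gene for the E alpha chain of MHC class II, whereas BALB/c carries a working one. Its levels were of the size of H2-Eb1, the partner chain, at 2011, 2556, 2231 and 2222 TPM, and tumor 1 was lowest and tumor 2 highest for both.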
